A study of Mus musculus with 2 samples.

Results

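Splicing factor genes were described in untransformed mouse myeloid progenitors. The genes were taken by name from the deposited table: every symbol that begins with Srsf and a digit (SR proteins), Hnrnp or Hnrp (heterogeneous nuclear ribonucleoproteins, hnRNPs), Sf3a or Sf3b and a digit (subunits of splicing factor 3), U2af (U2 auxiliary factor) or Prpf and a digit (pre-mRNA processing factors). This gave 56 of 23988 genes, namely 11 SR, 20 hnRNP, 3 SF3A, 6 SF3B, 3 U2AF and 13 PRPF genes. The cells came from lineage-depleted bone marrow of C57BL/6 mice and were grown for 7 days with IL3, SCF and IL6, with no other treatment or genetic change named. RNA-seq of total RNA gave 2 libraries of this 1 group, here replicate 1 and replicate 2. The series title names HOXA9/MEIS1 leukemia cells, which were not analysed here, so there is no comparison between conditions.

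Splicing removes introns from nuclear transcripts. The spliceosome assembles on each intron from small nuclear ribonucleoproteins (snRNPs): U1 binds the 5′ splice site, U2AF and U2 the 3′ splice site and branch site, and the U4/U6.U5 tri-snRNP then joins. SR proteins, which carry domains rich in arginine and serine, mostly promote the use of nearby splice sites, whereas hnRNPs coat the nascent transcript and often repress them. Mutations of SF3B1, SRSF2, U2AF1 and ZRSR2 recur in human myeloid malignancies, which makes the levels of these genes in myeloid progenitors of interest.

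Values are RPKM, reads divided by gene length and library size. Steps between the values gave effective library sizes of 29941063 reads for replicate 1 and 28793666 for replicate 2, either of which can contain a normalisation factor. The members above 0 had between 144 and 51521 fitted reads in replicate 1, with a median over all members of 5623 reads there and 3967 in replicate 2. All 10 marker genes of myeloid progenitors and granulocytes exceeded 1 RPKM in both libraries, among them Mpo (myeloperoxidase) at 1587 and 1164 RPKM and Kit at 21.2 and 26.2. No marker of B cells or T cells reached 1 RPKM, and Pax5, Ebf1 and Cd3e were listed at 0. The 4 erythroid markers summed to 2.06 and 4.01 RPKM, and of 4 markers of stroma and endothelium only Pecam1 exceeded 1 RPKM, at 194 and 154. Separate cultures or animals are not named in the labels, and the spread between the libraries may be technical. No test was run, since flipping the signs of 2 libraries (an exact permutation test) gives no p under 0.5.

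The deposited values were divided by lengths that belong to other genes, which affects every comparison of level between genes but not the ratio of the 2 libraries for 1 gene. The length behind each row was found as the smallest one that turns both values of the row into whole reads. Around the hnRNP genes, the length of a row equalled that of a transcript of its own gene (within 2 bp, GENCODE vM21) for 1 of 140 genes, while the length 1 row further down did so for 26 of 139 genes (18.7%). Around the SR genes the counts were 1 of 187 in the gene's own row and 35 of 184 (19%) 2 rows further down. Around the PRPF genes they were 1 of 157 and 30 of 161, and around the U2AF genes 2 of 208 and 41 of 204. For example, the row of Hnrnpa1 was divided by 2678 bp, the length of the single annotated transcript of Hnrnpa0, the gene listed just before it. The row of Srsf3 was divided by 2939 bp, the length of Srsf12, which stands 2 rows before it. The reads themselves sat on the right names, since the 10 myeloid markers had a median of 313 RPKM in their own rows and at most 9.22 in the rows up to 4 places away. Why the lengths are displaced was not tested.

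**Figure D1:**
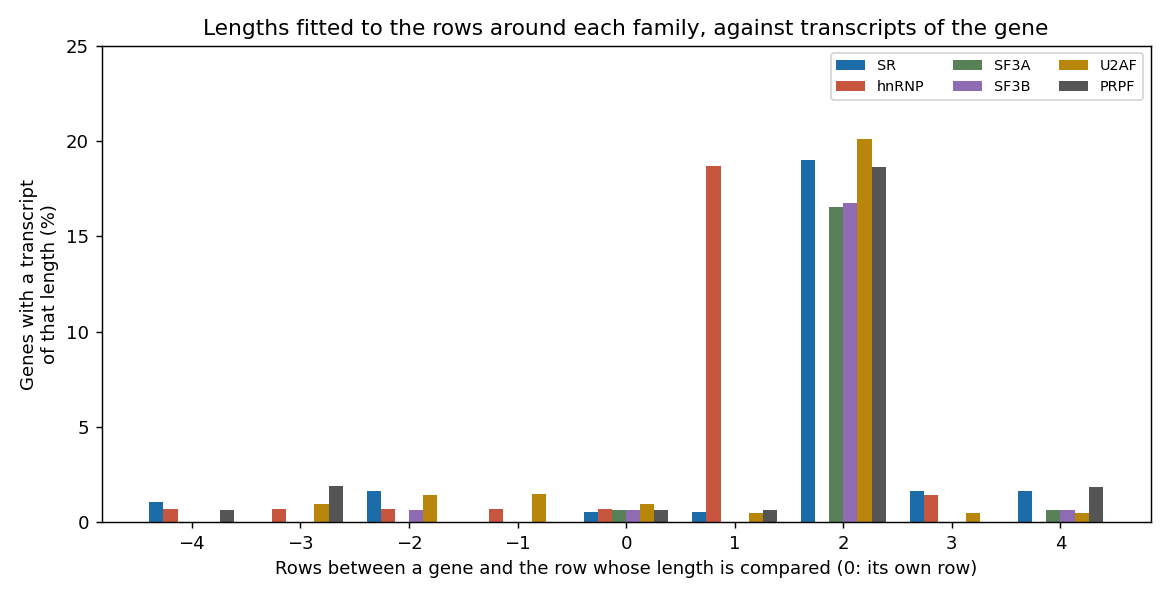
Share of genes (%) within 150 rows of each family whose annotated transcripts include the length fitted to a row of the table, plotted by the number of rows between the gene and that row, with 1 bar per family. The bars stand near 0 at the gene's own row and reach 18.7% 1 row later around the hnRNP genes and 16.6% to 20.1% 2 rows later around the other families.

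The levels of members are therefore also given per length of the gene itself: the fitted reads of its row were divided by the length found 1 or 2 rows further down, or by a GENCODE transcript length for 5 members. Of the 55 members above 0, 18 were over 1.5 times higher than deposited with their own length and 15 were lower by as much. The change ranged from 6.66-fold lower, for Prpf19, to 4.52-fold higher, for U2af1, and this correction was chosen after the displacement was seen. The fitted length could be a fraction of the true one, and 11 own lengths matched, within 10%, no annotated transcript of the gene that is linked to RefSeq. For those 5 members, U2af2 among them, the own length is the GENCODE one, so table and GENCODE lengths could not be compared. Among the others the 2 lengths differed by over 1.5 times for Srsf1, Hnrnpf, Hnrnpm, Hnrnpr and Prpf4b. Their levels are the least certain of those compared. The widest of these gaps was for Hnrnpr, at 62.4 and 58.5 RPKM with the table length and 4.66 and 4.37 with the GENCODE length. Marker genes are given as deposited.

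Nearly all members were expressed. Of the 56 genes, 54 stood at 1 RPKM or more in both libraries as deposited (96.4%), against 43.5% of all genes, and 53 reached 5 RPKM, against 32.3%. The exceptions were Srsf12, listed at 0, and Prpf40b, at 0.918 RPKM in replicate 1 and 1.29 in replicate 2. With own lengths Prpf40b stood at 1.52 and 2.13 RPKM, so that 55 members reached 1 RPKM in both libraries.

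Sequence upstream of 4 members is shown because the results turn on them: Hnrnpa2b1 had the most reads, Srsf2 and U2af1 are genes mutated in myeloid disease that were lower in replicate 2, and Sf3b1, mutated in the same diseases, was higher there. The sequences are the 250 bases before the annotated start in RefSeq (GRCm38.p6), 5′ to 3′ on the gene's strand. Where RefSeq lists several starts (Hnrnpa2b1 and U2af1), the first listed is shown. Capitals mark matches on either strand to 4 motifs: the TATA box, written TATAAA, the CCAAT box, whose letters are its name, the GC box, written GGGCGG, and the ETS core, written CCGGAAG. The windows are chr6:51469895-51470144 for Hnrnpa2b1, chr11:116853095-116853344 for Srsf2, chr17:31658765-31659014 for U2af1 and chr1:55027479-55027728 for Sf3b1, all on the minus strand.
Hnrnpa2b1: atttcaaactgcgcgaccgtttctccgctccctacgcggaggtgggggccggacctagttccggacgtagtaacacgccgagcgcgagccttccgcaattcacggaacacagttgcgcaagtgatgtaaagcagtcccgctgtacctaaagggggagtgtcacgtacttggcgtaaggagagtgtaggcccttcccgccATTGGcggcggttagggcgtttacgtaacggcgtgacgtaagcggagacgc
Srsf2: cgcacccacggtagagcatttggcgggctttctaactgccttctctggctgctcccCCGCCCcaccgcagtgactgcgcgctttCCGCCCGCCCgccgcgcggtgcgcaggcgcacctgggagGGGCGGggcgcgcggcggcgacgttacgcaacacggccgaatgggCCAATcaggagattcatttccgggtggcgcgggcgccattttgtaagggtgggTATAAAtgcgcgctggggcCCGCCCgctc
U2af1: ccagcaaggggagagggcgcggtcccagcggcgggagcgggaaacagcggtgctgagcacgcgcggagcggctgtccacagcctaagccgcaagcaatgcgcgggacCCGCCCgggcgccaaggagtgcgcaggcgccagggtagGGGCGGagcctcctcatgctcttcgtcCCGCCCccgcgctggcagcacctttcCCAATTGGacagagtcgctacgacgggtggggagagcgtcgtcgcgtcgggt
Sf3b1: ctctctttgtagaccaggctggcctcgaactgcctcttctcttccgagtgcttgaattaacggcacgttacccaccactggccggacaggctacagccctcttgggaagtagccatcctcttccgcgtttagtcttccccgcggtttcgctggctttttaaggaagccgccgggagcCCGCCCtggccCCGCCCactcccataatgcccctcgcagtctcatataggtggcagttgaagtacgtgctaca
In these windows Srsf2 held a TATA box, a CCAAT box and GC boxes. U2af1 held a CCAAT box and GC boxes, Hnrnpa2b1 a CCAAT box and Sf3b1 GC boxes. Of the 56 members, 49 had entries in the RefSeq table, with 66 windows, some of them of the same gene, while those without one included Hnrnpll, Hnrnpul2, Prpf18, Sf3b4, Sf3b5 and U2af2. In all 13 motifs were searched, and the 4 in capitals were picked after their shares were seen. The GC box was found in 45 of 66 windows (68.2%), against 32.7% of 32851 windows of all genes, and CCAAT in 33 (50%), against 33.8%. The ETS core was found in 19 windows (28.8%), against 6.91%, and TATAAA in 4 (6.06%), against 12.4%. Of the 9 others, an E2F motif, written TTTCCCGC, was found in 6 windows of members (9.09%), against 0.895% of all windows, and the E-box, written CACGTG, in 6 (9.09%), against 6.02%. The palindromic NRF1 motif was found in 1 window (1.52%, against 0.782%). The YY1 motif, written AAGATGGC, was found in 1 (1.52%, against 1.56%), and another E2F form, written TTTCGCG, in 1 (1.52%, against 0.703%). No member window held the palindromic ZBTB33 motif (0.39% of all windows), or the ZNF143 motif (0.262%). None held the CRE, written TGACGTCA (1.55%), or the E2F form written TTTGGCGC (0.417%). The windows of the members held a median of 22 CG dinucleotides, against 6 in all windows, so the motifs rich in G and C were compared across sequence of different composition. These matches are descriptions of letters and not binding sites.

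The SR genes spanned a wide range, with a group of highly expressed members and a few low ones. Srsf2, which binds exonic enhancers through a single RNA recognition motif, had deposited values of 199.5 RPKM in replicate 1 and 157 in replicate 2, and values of 384 and 302 with its own length. Srsf5 stood at 178 and 174 RPKM as deposited and at 328 and 319 with its own length. These were the highest SR genes with own lengths in both libraries, where the ranges of Srsf2 and Srsf5 over the libraries overlapped. Srsf1, the first SR protein described as a splicing factor, stood at 215 and 166 RPKM with its own length, and Srsf3, the smallest SR protein, at 193 and 168. Srsf6 stood at 123 and 89.7 RPKM with its own length. Srsf9 and Srsf7 followed, each with values between 76.1 and 107 RPKM over the 2 libraries. Srsf10, Srsf11 and Srsf4 were the low members above 0, at 43.1 and 35.9, 26.6 and 22.7, and 8.92 and 6.39 RPKM. Srsf4 shared 65.4% of the 50-base words of its transcript with other annotated genes, and the part of such copies in its low value was not tested. Srsf12, a relative of Srsf10, was listed at 0 in both libraries, where a count of 0 allows up to 0.0341 RPKM in replicate 1 and 0.0355 in replicate 2 at its own length of 2939 bp.

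The hnRNP genes held the highest values of all members. Hnrnpa2b1, whose protein binds RNA in splicing, transport and stability, had deposited values of 786 and 531 RPKM, and of 717 and 485 with its own length. It also had the most reads, 51521 and 33510. Hnrnpf, a binder of G-rich elements, stood at 599 and 487 RPKM with its own length, a value that would be 1.61 times lower with the longest GENCODE transcript. Hnrnpf shared 67.3% of its 50-base words with other annotated genes. Hnrnpab stood at 353 and 234 RPKM, Hnrnpl, a binder of CA repeats, at 332 and 273, and Hnrnpk, a binder of C-rich RNA, at 279.6 and 226, all with own lengths. Hnrnpm and Hnrnpc, whose protein binds uridine tracts and competes with U2AF for them, stood at 222 and 172 and at 195 and 149.9 RPKM.

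Below these lay the other hnRNP genes, from 142 RPKM for Hnrnpa0 in replicate 1 to 3.32 for Hnrnph3 in replicate 2, with own lengths. Hnrnpa0, Hnrnph1 and Hnrnpul1 were above 95 RPKM in both libraries, and Hnrnpul2, Hnrnpdl, Hnrnph2, Hnrnpr, Hnrnpd, Hnrnpa3 and Hnrnpll between 37.7 and 87.7. Hnrnpu, which encodes a nuclear scaffold protein that also binds RNA, stood at 117 and 83.2 RPKM as deposited but at 25.6 and 18.2 with its own length of 7340 bp. Hnrnpa1, usually counted among the most abundant hnRNPs, was the second lowest of the family, at 8.29 and 6.28 RPKM as deposited, with 665 and 484 reads. Of its 50-base words, 46.4% occurred in transcripts of 19 other annotated genes. Hnrnph3 was the lowest at 4.46 and 3.04 RPKM as deposited, with 316 and 207 reads, and shared only 3.10% of its words with other genes. Reads that fit several copies may be lost in counting, and the part of this in the low values was not tested.

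Among the factors that read the 3′ splice site, both U2AF subunit genes and SF3B genes were well expressed. U2af2, the large subunit that binds the polypyrimidine tract, stood at 377 and 293 RPKM as deposited and at 168 and 131 with its own length. U2af1, the small subunit that contacts the AG at the end of the intron, stood at 42.0 and 29.1 RPKM as deposited and at 190 and 132 with its own length. The deposited values of these partners in a heterodimer were far apart, whereas their ranges over the libraries overlapped per own length. Of their 50-base words, U2af1 shared 59.4% and U2af2 29.9% with other annotated genes, and the part of this in their levels was not tested. U2af1l4, a short relative of U2af1, stood at 31.6 and 29.7 RPKM with its own length and shared 97.2% of its words with other annotated genes.

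The SF3B and SF3A proteins are parts of the U2 snRNP that hold the branch site. Sf3b1, the scaffold around the branch site helix, stood at 283 and 316 RPKM as deposited, the highest SF3 value, but at 76.6 and 85.5 with its own length of 6192 bp, read from the row of Sf3b3. With own lengths Sf3b2 at 104 and 86.4 RPKM and Sf3b6, which lies near the branch point adenosine, at 101 and 83.3 were in the same range as Sf3b1. Sf3b3 and Sf3b4 stood at 54.5 and 39.9 and at 49.9 and 34.7 RPKM, and Sf3b5 at 29.4 and 25.9. The SF3A genes Sf3a3, Sf3a2 and Sf3a1 stood at 60.6 and 41.9, at 46.0 and 35.5, and at 23.5 and 17.8 RPKM. In replicate 1 the 6 SF3B genes thus lay within 29.4 to 104 RPKM with own lengths, against 25.1 to 283 as deposited.

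The PRPF genes had a lower median than the SR and hnRNP genes. Their proteins act mostly in the tri-snRNP (Prpf3, Prpf4, Prpf6, Prpf8, Prpf31) or in spliceosome activation (Prpf19), and Prpf4b is a kinase. Prpf38b, at 62.6 and 46.8 RPKM with its own length, was the highest. Prpf4b, Prpf38a and Prpf31 stood between 27.0 and 43.3 RPKM. Prpf8, the largest protein of the spliceosome's core, stood at 48.7 and 40.8 RPKM as deposited and at 29.2 and 24.5 with its own length. Prpf19, a ubiquitin ligase and core of the complex that bears its name, was the highest PRPF gene as deposited, at 165 and 115 RPKM, but stood at 24.8 and 17.3 with its own length. Prpf6, Prpf3, Prpf18 and Prpf39 stood between 13.2 and 22.6 RPKM with own lengths, and Prpf4 at 8.24 and 6.00.

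**Figure D2:**
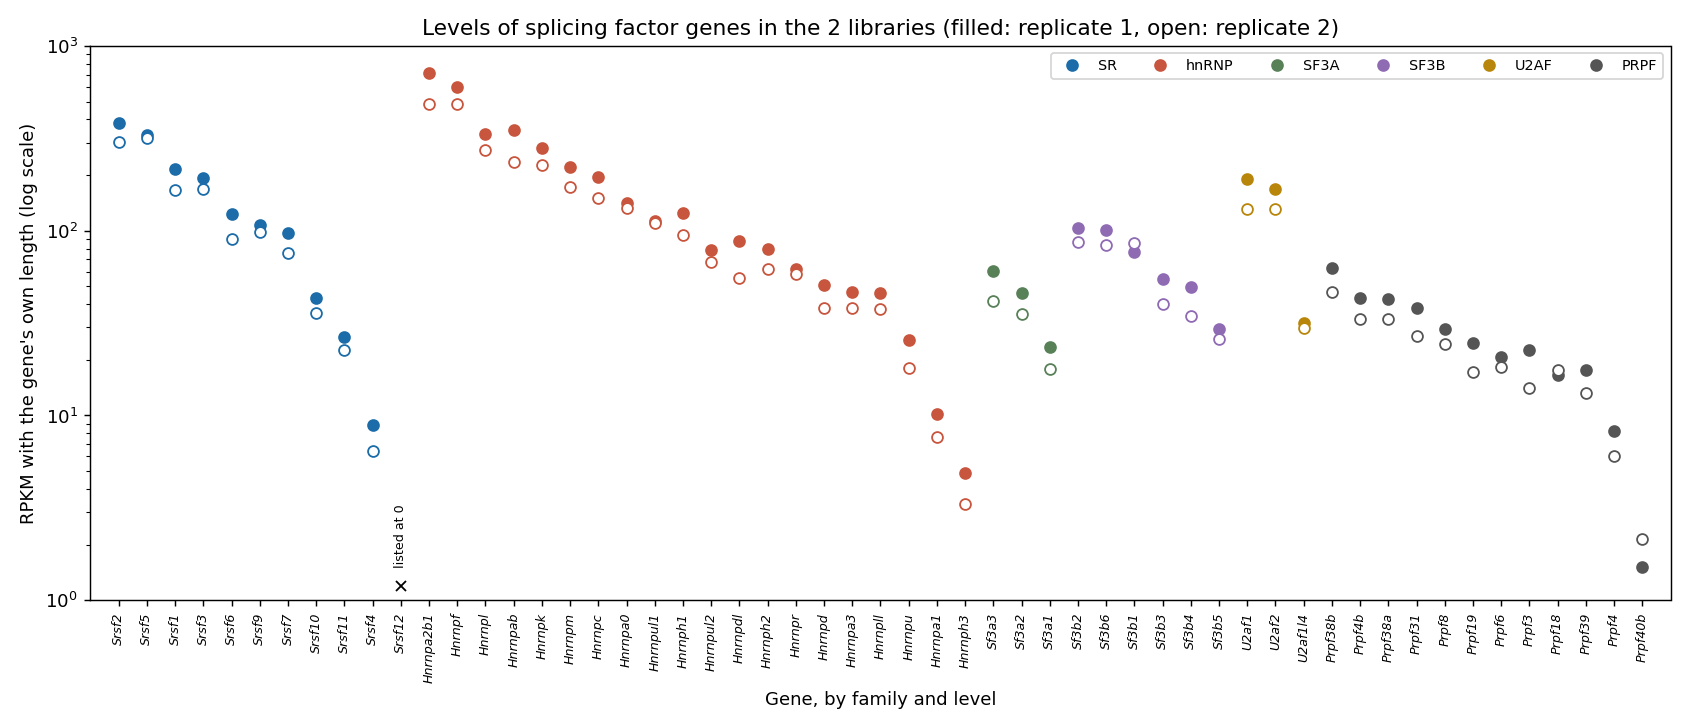
RPKM with the gene's own length (log axis) of the 55 members reported singly in replicate 1 (filled) and replicate 2 (open), ordered within each family by mean level. Hnrnpa2b1 is highest at 717 and 485 RPKM, most PRPF genes lie between 13.2 and 62.6, and Srsf12 is marked as listed at 0.

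The size of the differences between families depended on the length and on the summary used. Family medians of log2(RPKM + 1) were subtracted within each library. A difference counted as larger than the spread between the libraries if its sign was shared by both and its mean passed 2 SD. This SD is over the 2 libraries and does not measure the spread among the genes of a family. SR genes exceeded PRPF genes by 2.63 ± 0.12 (SD, n = 2) as deposited and by 2.24 ± 0.06 with own lengths. With means in place of medians the deposited difference was 1.19, and 1.77 without Srsf12. SF3A and SF3B genes together exceeded PRPF genes by 0.24 ± 0.14 (SD, n = 2) as deposited, within 2 SD, and by 1.18 ± 0.07 with own lengths, beyond it, and the deposited difference was 0.85 with means. The hnRNP median lay below the SR median by a difference of -0.33 ± 0.03 (SD, n = 2) as deposited and of -0.13 ± 0.04 with own lengths. With means in place of medians the deposited difference had the other sign, at 0.78, and at 0.20 without Srsf12.

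Of 8 pairs of related members chosen by family relationship, 7 kept their direction with own lengths. Among the 7, Srsf10 over Srsf12 could not turn with any length, since Srsf12 is listed at 0. Another of the 7, Srsf1 over Srsf9, stood at 0.87 ± 0.18 (SD, n = 2) with own lengths. With the longest GENCODE transcripts it stood at -0.070 ± 0.18, so its direction is not settled. On the same log2 scale, U2af1 exceeded U2af1l4 by 0.89 ± 0.31 (SD, n = 2) as deposited and by 2.33 ± 0.31 with own lengths. Hnrnpl exceeded Hnrnpll, a regulator of splicing in lymphocytes, by 1.85 ± 0.01 (SD, n = 2) and by 2.82 ± 0.01 with own lengths. The direction turned for Hnrnpd against Hnrnpdl: the deposited difference was 1.86 ± 0.15 (SD, n = 2), and that with own lengths was -0.66 ± 0.17, since the row of Hnrnpdl was divided by the 6811 bp of Hnrnpd.

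Between the libraries, the members were almost uniformly lower in replicate 2. Of the 55 members whose mean reached 1 RPKM, 52 were lower in replicate 2 (94.5%), against 55.9% of the 10896 genes with that mean, and 3 were higher (5.45%), against 44.1%. Their median log2 ratio of replicate 2 over replicate 1, with 1 added to each value, was -0.35, against -0.05 for all these genes. The differences were small. On this scale 31 members were lower by at least 0.32 (56.4%, against a background of 19.4%), but 3 were at least 1.5-fold lower (5.45%, against 4.26%) and 0 at least 2-fold lower (against 0.734%). In the other direction 0 members reached a difference of 0.32, 1.5-fold or 2-fold, against 20.1%, 11.3% and 5.3% of all genes. Each side is 1 library, so the difference has no replicate check. The plain ratio of a gene does not depend on its length; the added 1 and the minimum mean do, and with own lengths 52 of 55 were again lower, at a median of -0.36.

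Most members of every family were lower in replicate 2, as were 55.9% of all genes. Of the SF3B genes 5 of 6 were lower (83.3%), and of the PRPF genes 11 of 13 (84.6%). All 10 SR genes above 0 were lower in replicate 2, with log2 ratios from -0.45 for Srsf6 to -0.04 for Srsf5. All 20 hnRNP genes were lower, from -0.63 for Hnrnpdl to -0.05 for Hnrnpul1, and so were the 3 SF3A and the 3 U2AF genes. The family medians lay close together, at -0.30 for SR, -0.35 for hnRNP, -0.38 for SF3A, -0.27 for SF3B and -0.36 for both U2AF and PRPF genes. The 3 members at least 1.5-fold lower were Prpf3, a tri-snRNP protein, Hnrnpdl and Hnrnpab, whose deposited values were 18.1 and 11.3, 35.4 and 22.5, and 172 and 114 RPKM. With the median of all genes set to 0, only Prpf3 passed 1.5-fold. Hnrnpa2b1 was 0.676 times as high in replicate 2 as in replicate 1 (95% interval 0.667 to 0.686 from its fitted reads, counting error only). U2af1 stood at 0.693 times (0.665 to 0.723) and Srsf2 at 0.786 times (0.770 to 0.802). In all, 51 of the 52 lower members had intervals below 1, U2af1l4 being the exception at 0.942 with an interval that held 1. Intervals were computed for members only, so no share of all genes can be set beside this count. Where reads are many, the interval of even a small difference excludes 1, as for Srsf5 at 0.974 times (0.952 to 0.995) on 16234 and 15200 reads. The count is therefore no measure of how far the members differ from other genes.

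The members higher in replicate 2 were Sf3b1, Prpf18 and Prpf40b. Sf3b1 was 1.12 times as high (1.09 to 1.14), on 14205 and 15250 reads, while the other 5 SF3B genes were lower by log2 ratios from -0.17 to -0.50. Prpf40b, a low gene on 144 and 194 reads, was 1.40 times as high (1.13 to 1.74), or 0.25 on the log2(RPKM + 1) scale. Prpf18, a factor of the second step of splicing, was 1.07 times as high (0.998 to 1.14), an interval that holds 1.

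**Figure D3:**
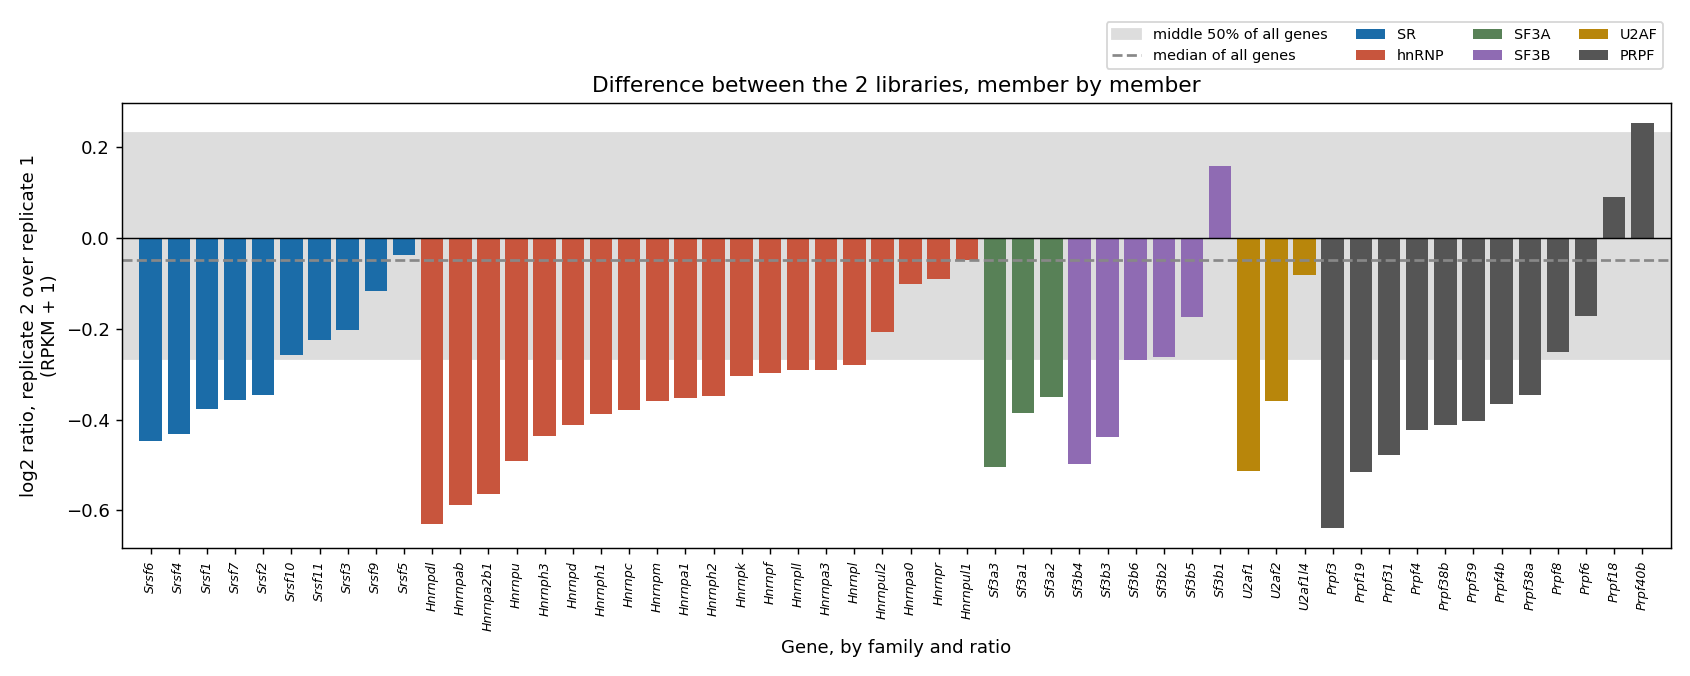
Log2 ratio of replicate 2 over replicate 1 of RPKM + 1 for the 54 members above that mean that are reported singly, by family, with the median (dashed) and the middle 50% (grey) of all genes with that mean. All bars but those of Sf3b1, Prpf18 and Prpf40b point down, and the family medians lie between -0.38 and -0.27.

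Markers of other states moved between the libraries as well. The lists of G1/S genes, of macrophage markers and of mast cell markers were added after the difference was seen, so their counts are descriptions only. Sums over a list use deposited values, so the displaced lengths set the weight of each gene in them. For example, Fn1 in replicate 2 stood at 401 RPKM as deposited and at 44.3 with its own length. All 10 G1/S genes were lower in replicate 2, against 55.9% of all genes. Their median log2 ratio was -0.52, and they summed to 1035 and 711 RPKM as deposited. All 9 monocyte and macrophage markers were higher, against 44.1% of all genes, with a median of 1.92 and summed levels of 1155 and 3794 RPKM. Their log2 ratios ran from 0.56, for Mrc1, to 5.06, for Fn1, and Lyz2 stood at 442 and 1853 RPKM. The 6 mast cell markers with a mean of 1 RPKM or more were higher, against 44.1% of all genes. Their median was 5.58, and the list summed to 257 and 1350 RPKM. Of its proteases, Mcpt4 had 0.195 and 67.0 RPKM and Tpsb2 0.666 and 80.9 RPKM in the 2 libraries in order. Mcpt2 stood at 4.97 and 402 RPKM and Cma1 at 3.55 and 211. Cpa3 was high already in replicate 1, at 221 and 556 RPKM, and Slc18a2 stood at 26.5 and 32.9. The tryptase gene Tpsab1 stayed below 1 RPKM in both libraries, at 0.0298 and 0.713. Of the 10 markers of myeloid progenitors and granulocytes, 6 were lower in replicate 2 (60%, close to the 55.9% of all genes), and the list summed to 5684 and 4418 RPKM. The 6 were Mpo, Elane, Prtn3, Ctsg, Ms4a3 and Spi1, whereas Kit, Cd34, Cebpa and Csf3r were higher. The part of these shifts in the lower values of the splicing factors was not tested. In bulk RNA, fewer cells of a type and less RNA per cell cannot be told apart.

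Other splicing genes, listed by their place in the pathway, mostly showed the same direction. Of 143 such genes, 124 had 1 RPKM or more in both libraries (86.7%, against 43.5% of all genes), and 110 of the 124 whose mean reached 1 RPKM were lower in replicate 2 (88.7%, against 55.9%), with a median log2 ratio of -0.25. Of each list the 3 genes with the highest deposited values are named. Since the displaced lengths shape that choice, it is no ranking, and the RPKM given for them are those with own lengths.

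All 6 genes of the U1 snRNP list were lower, with a median of -0.25, Snrnp70 at 224 and 184, Luc7l2 at 66.9 and 58.7 and Snrpc at 122 and 104 RPKM. The Sm proteins form the ring of most spliceosomal snRNPs. Their 7 genes above 0 were lower, with a median of -0.33, Snrpe at 1097 and 896, Snrpg at 153 and 129 and Snrpd3 at 64.7 and 49.6, and Snrpn was listed at 0. All 11 other U2 and branch site genes were lower, with a median of -0.28, U2surp at 21.2 and 16.3 and Smndc1 at 43.4 and 36.6. The own length of Snrpb2 matched none of its transcripts linked to RefSeq. All 9 exon junction complex genes were lower, with a median of -0.29, Acin1 at 161 and 143, Eif4a3 at 114 and 82.3 and Rnps1 at 93.4 and 76.1.

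Of 17 tri-snRNP partners 16 were lower, with a median of -0.29, Lsm4 at 148 and 126, Snrnp40 at 61.3 and 49.2 and Lsm7 at 126 and 95.1. The exception was Snrnp200, the helicase that unwinds U4 from U6, at 12.9 and 13.6. Of 15 genes of the Prpf19 complex and of activation 14 were lower, with a median of -0.22, Bcas2 at 73.9 and 58.6, Snw1 at 33.2 and 30.1 and Cwc15 at 95.5 and 82.5, and the exception was Syf2 at 51.2 and 53.0. In the list of step helicases and second step factors 4 of 6 genes were higher in replicate 2 (66.7%, against 44.1% of all genes), namely Dhx8, Dhx16, Slu7 and Cdc40, and the median was 0.02. Its log2 ratios lay between -0.24, for the RNA helicase gene Ddx39b at 201 and 170.0 RPKM, and 0.13, for Slu7 at 13.2 and 14.4, with Dhx38 at 24.9 and 24.3. Dhx8, Dhx16 and Cdc40 were higher by log2 ratios of only 0.03, 0.01 and 0.08, and no counting intervals were computed for this list. Prpf18, which acts at the same step as Slu7, was 1.07 times as high, with an interval that held 1 (0.998 to 1.14). The difference of this list from the others was not tested.

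The minor spliceosome removes a rare class of introns. Its 10 genes had medians of 7.01 and 6.55 RPKM as deposited, or 16.3 and 13.6 with own lengths. Of them 7 were lower in replicate 2 (70%, against 55.9% of all genes), the others being Snrnp25, Snrnp35 and Scnm1. Snrnp48 stood at 19.5 and 15.4, Pdcd7 at 9.98 and 7.80 and Zcrb1 at 66.5 and 53.1 with own lengths. Zrsr2, a gene of this machinery mutated in myeloid disease, stood at 7.85 and 6.42 as deposited. It stood at 5.63 and 4.61 with an own length that matched none of its transcripts linked to RefSeq.

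Among 14 genes for SR protein kinases, import and SR-related proteins, 13 were expressed and these 13 were lower, with a median of -0.21, Srrm2 at 44.6 and 43.9, Son at 46.7 and 40.9 and the kinase gene Srpk2 at 21.6 and 16.5 RPKM with own lengths. Srpk3 stood below 1 RPKM, at 0.354 and 0.326 as deposited. Of 19 hnRNP-like genes without the prefix 17 were lower, with a median of -0.32, Pcbp2 at 108 and 68.8, Pcbp1 at 245 and 185 and Ewsr1 at 159.8 and 132. The exceptions were Tia1, at 11.5 and 11.6, and the cold-inducible gene Cirbp, at 29.1 and 38.1.

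Of 28 splicing factors known for tissue-restricted roles, 11 stood at 1 RPKM or more in both libraries as deposited (39.3%, close to the 43.5% of all genes). The other 17, among them neuronal and epithelial factors, were at or below 0.327 RPKM. Mbnl1 stood at 87.2 and 68.8, Ptbp3 at 75.2 and 76.7 and Khdrbs1 at 60.2 and 53.2 with own lengths. Of the 11, 8 were lower in replicate 2 (72.7%, against 55.9%), with a median of -0.17, and the others were Rbfox2, Mbnl2 and Ptbp3.

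**Figure D4:**
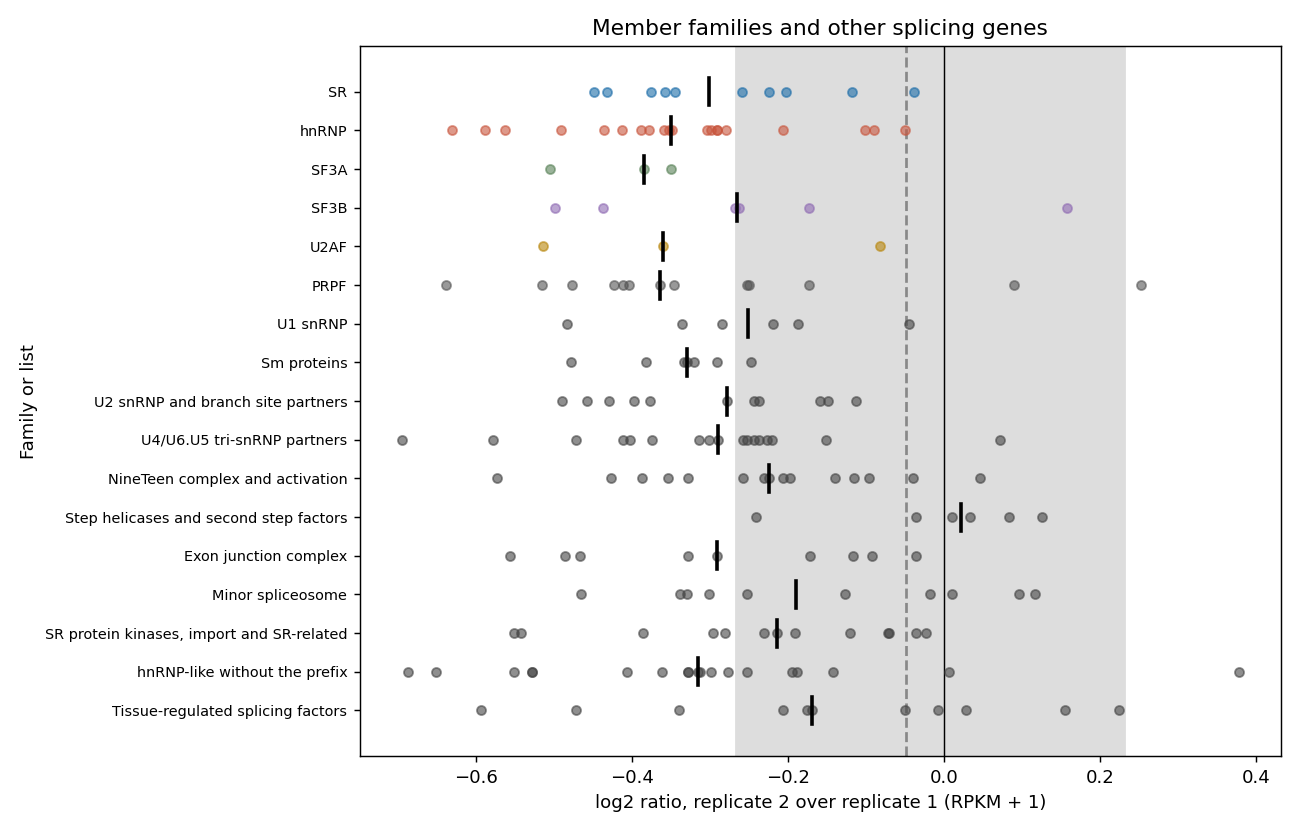
Log2 ratio of replicate 2 over replicate 1 of RPKM + 1 for each gene (points) and the median (bar) of each member family and each list of other splicing genes, over genes whose mean reached 1 RPKM; the dashed line and grey band are the median and middle 50% of all such genes. The medians lie between -0.38 and -0.17, except the helicases and second step factors at 0.02.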

How the data were processed

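RNA-seq of 2 libraries of cultured myeloid progenitors was used, as RPKM values that the authors deposited, with columns matched to replicates 1 and 2 by name. The submitters' processing notes name Trimmomatic 0.32, TopHat2, HTSeq and edgeR, with genome build mm9; settings, annotation and strand were not given in the sources used here. Of 24015 rows, 27 with names in the form of dates were left out.

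Python 3.11.15 with numpy 2.4.6 and pandas 2.3.3 was used. The ratio of effective library sizes, 0.962, came from 464 genes with equal reads, and the scale from 10 genes with 1 GENCODE vM21 transcript. Lengths from 150 to 25000 bp were tried for each row (tolerance 0.001 reads or a relative 3e-08, whichever was larger), and 99.97% of rows above 0 in both libraries gave a fit. The displacement of lengths was read within 150 rows of each gene. Multiples of the smallest length, up to 5, were taken where they lay within 10% of an annotated transcript. For this and for the longest GENCODE transcript, only transcripts linked to RefSeq were used where the gene had any. GENCODE, on a later build, gave lengths only. These steps were tested on simulated data in which the scale step was given the true row lengths and the displacement was constant. The way the scale was set in the real data was therefore not tested. Own-length values were added after the displacement was seen; the deposited values remain the main ones of the design.

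Log2 ratios used a pseudocount of 1, which understates differences of low genes, and genes with a mean of 1 RPKM or more. Intervals (95%) use fitted reads, which are the smallest that fit and carry no molecular identifiers, and cover counting error only. The members and lists were chosen with earlier results of these data known, and the lists of G1/S, macrophage and mast cell genes after the library difference was seen. Every member is named except 1, which is counted in the totals and medians but whose own values and pair are not reported here. Of each other splicing list, the 3 highest by mean RPKM, genes below 1 RPKM where these number 5 or fewer, Zrsr2, genes behind counts of 5 or fewer, and markers are named.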

Additional observations from a re-analysis of the deposited data

How the results depend on the processing

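No paired analysis was possible because the labels give 1 group. With 2 libraries, leaving out 1 cannot move a mean by more than their SD, so it says nothing of stability. The number of members lower in replicate 2 was 51 or 52 under every scaling, pseudocount, filter and length tried, and their median log2 ratio lay between -0.40 and -0.30, within 0.1 of the main value, a tolerance set by hand as no replicate SD exists. Members at least 1.5-fold lower numbered 1 with the median of all genes set to 0, in place of 3; the count was 31 at a log2 difference of 0.32 and 0 at 2-fold. With own lengths, family medians of log2(RPKM + 1) moved from 7.17 to 6.63 (SR), 6.84 to 6.50 (hnRNP), 4.20 to 5.37 (SF3A), 5.50 to 5.96 (SF3B), 5.17 to 7.22 (U2AF) and 4.54 to 4.39 (PRPF). With the longest GENCODE transcript as own length they were 6.66, 6.39, 4.98, 5.90, 7.18 and 4.36 in that order. Means in place of medians gave 5.77 (SR), 6.55 (hnRNP), 5.98 (SF3B) and 5.94 (U2AF). For hnRNP minus SR genes the difference turned to 0.78 with means and to 0.20 with means over members at 1 RPKM or more, and was -0.40 with members at 1 RPKM or more, -0.13 with own lengths and -0.27 with GENCODE lengths. SF3A and SF3B minus PRPF genes gave 0.85 with means of either kind, 1.18 with own lengths and 1.14 with GENCODE lengths. SR minus PRPF genes gave 1.19 with means, 1.77 with means over members at 1 RPKM or more, 2.24 with own lengths and 2.30 with GENCODE lengths. Own lengths moved the pairs Srsf3 over Srsf7 from 0.37 to 1.05, Srsf1 over Srsf9 from 2.18 to 0.87, Srsf10 over Srsf12 from 5.64 to 5.34, Hnrnph1 over Hnrnph2 from 1.11 to 0.63, Hnrnpl over Hnrnpll to 2.82, U2af1 over U2af1l4 to 2.33 and Prpf38a over Prpf38b from -1.26 to -0.51, and turned Hnrnpd over Hnrnpdl to -0.66. The longest GENCODE transcripts gave 1.0, -0.070, 5.34, 0.66, 2.80, 2.26 and -0.50 for these pairs in that order, which turned Srsf1 over Srsf9, and -0.66 for Hnrnpd over Hnrnpdl. A pseudocount of 0.1 gave 8.94 for Srsf10 over Srsf12 and 1.87 for Hnrnpl over Hnrnpll. With a minimum of 5 RPKM, 6 in place of 10 minor spliceosome genes were counted; the other lists changed by less than 1.5 times. Srsf12 is listed at 0, so its value in the pair with Srsf10 is set by the pseudocount alone. The cause of the other moves with means and pseudocounts was not tested.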

Other observations

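The displacement of gene lengths was not limited to the splicing factors. In blocks of 2000 rows, the length fitted to a row equalled a transcript of its own gene, within 2 bp, for 81 of 451 genes (18%) in the first block of the table. From the block that starts at Gjd3 to the end of the table, the share in the gene's own row was at most 1.1%. Within that stretch the best match stood 1 row further down in the blocks that start at Gjd3 and Hist3h2a (24% and 12.1%), and 2 rows further down in all later blocks (16.6% to 21%). The 3 blocks between, from Adam11 to Gjd2, matched at the gene's own row for 3.58% to 7.83% of genes and 1 row further down for 4.65% to 10.5%. Ratios between the libraries for 1 gene do not depend on these lengths.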
